A study of Mus musculus with 15 samples.

Results

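The respiratory chain genes described here are the nuclear genes for the subunits of mitochondrial complexes I to V, measured in the heads of mouse embryos that had lost Twist1 in the Mesp1-Cre lineage and in 3 groups of comparison embryos. Members were taken by symbol, as every probe whose gene begins with Nduf, Uqcr, Cox4i, Cox5, Cox6, Cox7, Cox8 or Atp5 or is Sdha, Sdhb, Sdhc or Sdhd, and were kept where the signal was detected (detection p under 0.05) on at least 3 arrays. Of 135 such probes 114 were kept, among 21869 kept probes of 45281 on the array, and they read 79 of 87 member genes among 11625 genes. The choice used no difference between genotypes. Kept genes were 34 of 35 for complex I, 3 of 4 for complex II, 6 of 7 for complex III, 13 of 17 for complex IV with Ndufa4, 16 of 16 for complex V, and 7 of 8 complex I assembly factors named Ndufaf, which help to build the complex and are not subunits. The symbol Ndufs5-ps, counted with complex I, names a pseudogene of Ndufs5. The 8 genes without a kept probe were Ndufs1, Sdha, Uqcrfs1, Cox6a2, Cox7b2, Cox8b, Cox8c and Ndufaf6, and they are not analysed further; a probe that was not detected gives no value for its gene.

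Complexes I to IV pass electrons from NADH and succinate to oxygen and, at complexes I, III and IV, move protons across the inner mitochondrial membrane; complex V, the ATP synthase, uses the proton gradient to make ATP. Several subunits of complex IV exist as pairs of isoforms, a general form and a form typical of heart and skeletal muscle, lung or testis. In the early embryo a growing share of ATP comes from this chain as the circulation begins to deliver oxygen, and glycolysis remains active. A transcript level does not measure respiration.

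Each of the 15 arrays read the RNA of embryo heads at embryonic day 9.5 (18 to 20 somites) on a C57Bl/6 x 129 x BALB/c background. Control heads (n = 3) were Twist1flox/+; Mesp1+/+. Het heads (n = 4) were Twist1flox/del; Mesp1+/+, and CM-Het heads (n = 4) were Twist1flox/+; Mesp1Cre/+. CM-CKO heads (n = 4) were Twist1flox/del; Mesp1Cre/+, so that cells in which Cre had acted would keep no intact Twist1 allele and all other cells of the head would keep 1. Every embryo therefore carried at least 1 floxed allele. The Cre is expressed from the Mesp1 locus, a gene switched on in nascent mesoderm, including the precursors of cranial mesoderm, heart and vessels; Mesp1-Cre itself was present in CM-Het and CM-CKO alike. The whole head was measured, so each value averages over mesoderm, neural crest, brain, ectoderm, vessels and blood, and fewer cells of a type and less RNA per cell cannot be told apart.

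Twist1 lay at a log2 signal of 9.87 to 9.95 in Control and 9.76 to 10.04 in CM-Het, against 8.62 to 9.32 in Het and 8.94 to 9.34 in CM-CKO. Its CM-CKO level was 0.76 ± 0.15 (SE) below Control on the log2 scale (adjusted p = 0.0063, limma) and differed from Het by 0.19 ± 0.14 (adjusted p = 0.425). The place of its probe relative to the deleted part is not known. Deposited mean signals ran from 341 to 434.4 per array, with 19204 to 19793 probes detected. CM-CKO 1, 2 and 3 and Het 1 shared slide 1, and CM-CKO 4 lay on slide 3 with Het 4, Control 2 and 3 and CM-Het 3 and 4. The remaining 5 arrays were on slide 2. Slide 1 held no Control or CM-Het head, so a fit with slide as a block cannot fully separate slide from knockout.

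Most respiratory chain genes differed little between CM-CKO and other heads, and 1 gene of complex IV, Cox6b2, stood far apart from the others. Against Control, 6 of 79 genes changed (4 higher, 2 lower), which is 7.59% of the members beside 7.23% of all genes tested (3.96% higher, 3.28% lower). Against Het 4 of 79 changed (2 higher, 2 lower), 5.06% beside 8.47% of all genes (4.15% higher, 4.33% lower), and against CM-Het 9 of 79 changed (7 higher, 2 lower), 11.4% beside 9.91% (5.29% higher, 4.62% lower). A gene is called changed where the Benjamini-Hochberg adjusted p of limma's moderated test, taken over all 11625 genes, is under 0.05. The 3 comparisons share the CM-CKO heads. The share of changed members was near the background in each of them. With median scaling in place of quantile normalization the calls were 2 higher and 0 lower against Control (2.53% of members beside 3.73% of all genes), 1 and 0 against Het (1.27% beside 5.01%), and 3 and 2 against CM-Het (6.33% beside 7.61%).

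The members' median log2 change was 0.02 against Control, 0.04 against Het and 0.05 against CM-Het, where the medians of all genes were −0.03, −0.04 and −0.03; with median scaling the members' medians were 0.0442, −0.0046 and −0.0595 and those of all genes −0.0032, −0.0869 and −0.1233, so the sign turned in the last 2 comparisons. Of the 79 genes, 57 lay within 0.2 of 0 on the log2 scale against Control (72.2%, beside 58.6% of all genes), and 3 moved by more than 0.5 (3.80%, beside 8.68%). Between groups without the CM-CKO heads there was less movement still: 0 of 79 changed in Het against Control and 0 of 79 in CM-Het against Control, beside 0% of all genes in both, and at an unadjusted p under 0.05 in limma there were 2 and 0 members, beside 5.47% and 3.55% of all genes. The largest differences there ran from −0.33 to 0.36 in Het and from −0.37 to 0.32 in CM-Het. Twist1, the targeted gene, differed by −0.95 ± 0.15 in Het against Control and did not pass either (adjusted p = 0.1105, limma). A count of 0 in that comparison therefore does not show that no gene differed. The interaction asks whether the CM-CKO difference from Het exceeds the CM-Het difference from Control; it passed for 1 of 79 members, Cox6b2, higher, beside 1.07% of all genes (0.671% higher, 0.396% lower).

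**Figure D1:**
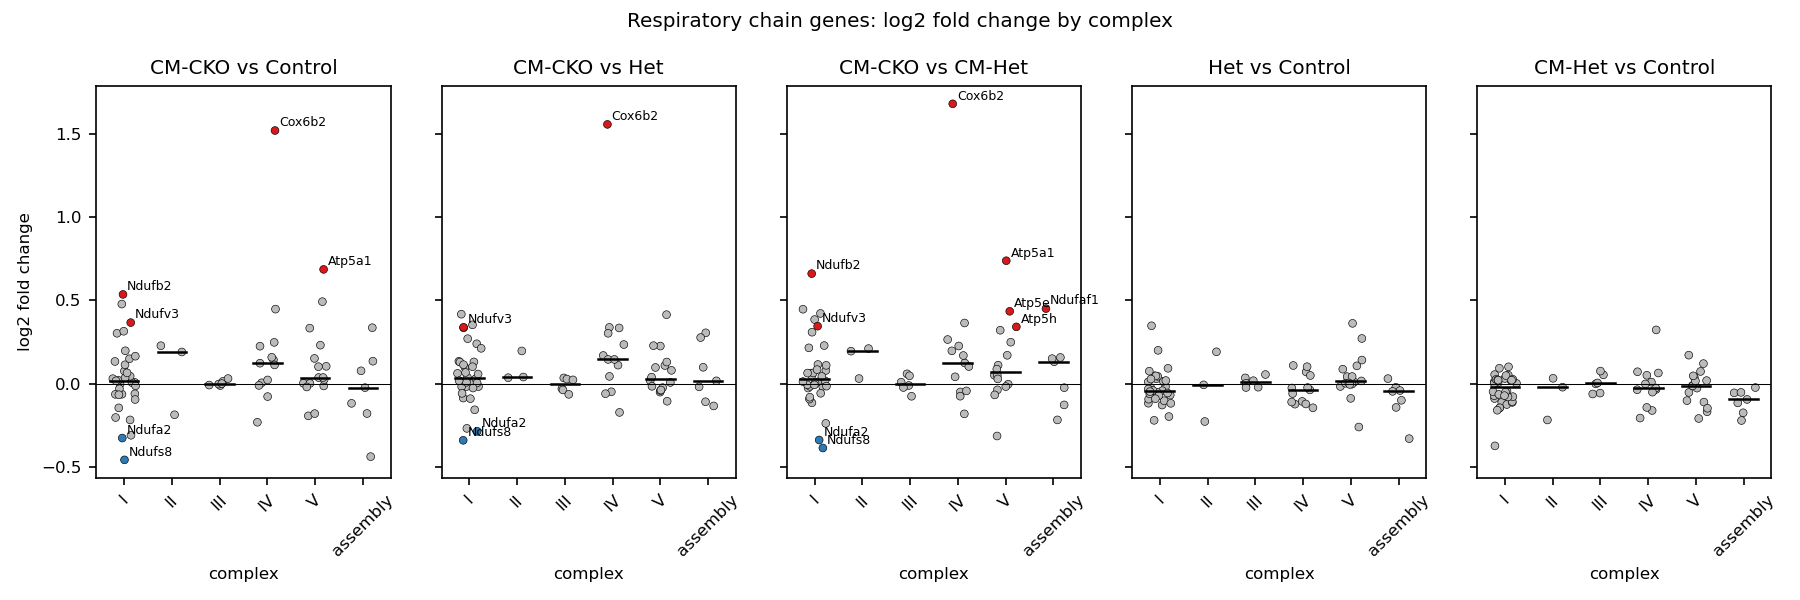
Log2 fold change (vertical axis) of each of the 79 respiratory chain genes, by complex (horizontal axis), in 5 comparisons; red and blue points rose or fell at an adjusted p under 0.05, grey points did not pass, and the bar is the median of a complex. Most points lie near 0 in every panel, and Cox6b2 lies above 1.5 in the 3 CM-CKO panels.

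Cox6b2 encodes the form of the cytochrome c oxidase subunit 6B best known from testis, and Cox6b1 encodes the form used in most tissues. Both genes are on chromosome 7 (Cox6b2 at 4751792 to 4753094, GRCm38.p6), and RefSeq gives for each a window around the start of the gene, from 250 bases before to 50 bases after it, on the minus strand. The windows are shown because the 2 genes encode alternative forms of 1 subunit and only the Cox6b2 transcript changed; the windows of Ndufs8 and Ndufv3, which fell and rose against all 3 groups, follow. Capitals mark matches on either strand to ACGTG or GCGTG (the core of the hypoxia response element) and to CCGGAAG (the core bound by ETS factors such as GABP); they appear in the text as read on the gene's strand, so CACGC and CTTCCGG are matches on the other strand. The windows are chr7:4753045-4753344 for Cox6b2, chr7:30626065-30626364 for Cox6b1, chr19:3912725-3913024 for Ndufs8 (minus strand) and chr17:31519865-31520164 for Ndufv3 (plus strand).
Cox6b2: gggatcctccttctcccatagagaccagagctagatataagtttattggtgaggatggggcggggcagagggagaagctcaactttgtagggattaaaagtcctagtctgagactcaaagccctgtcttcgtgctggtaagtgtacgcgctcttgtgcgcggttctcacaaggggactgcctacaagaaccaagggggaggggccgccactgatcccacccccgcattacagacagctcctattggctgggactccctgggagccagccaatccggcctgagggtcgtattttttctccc
Cox6b1: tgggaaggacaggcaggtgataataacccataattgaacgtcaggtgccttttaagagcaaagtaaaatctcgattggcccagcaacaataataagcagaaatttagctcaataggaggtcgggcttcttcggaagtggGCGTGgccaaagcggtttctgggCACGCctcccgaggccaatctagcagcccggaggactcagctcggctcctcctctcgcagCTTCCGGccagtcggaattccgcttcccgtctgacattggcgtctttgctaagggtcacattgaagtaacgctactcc
Ndufs8: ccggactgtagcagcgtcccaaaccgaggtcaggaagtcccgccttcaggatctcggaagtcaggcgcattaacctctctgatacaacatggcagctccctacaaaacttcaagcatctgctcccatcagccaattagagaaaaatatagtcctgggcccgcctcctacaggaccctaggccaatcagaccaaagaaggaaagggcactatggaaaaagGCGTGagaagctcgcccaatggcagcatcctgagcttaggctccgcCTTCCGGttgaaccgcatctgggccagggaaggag
Ndufv3: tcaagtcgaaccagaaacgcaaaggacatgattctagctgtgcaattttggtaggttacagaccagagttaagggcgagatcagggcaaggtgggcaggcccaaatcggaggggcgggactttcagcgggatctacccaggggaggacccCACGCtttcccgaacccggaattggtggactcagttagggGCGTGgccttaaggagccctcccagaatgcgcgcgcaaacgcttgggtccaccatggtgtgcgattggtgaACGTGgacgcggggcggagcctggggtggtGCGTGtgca

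The Cox6b2 window held none of 6 motifs searched, whereas that of Cox6b1 held GCGTG 2 times and CCGGAAG 1 time. Ndufs8 held GCGTG and CCGGAAG 1 time each, and Ndufv3 held ACGTG 1 time and GCGTG 3 times. RefSeq windows were found for 68 member genes (73 windows) and 32851 windows were searched in all. The palindromic NRF1 motif was present in 24.7% of member windows and 4.60% of all windows, and CCGGAAG in 24.7% and 8.86%. The YY1 motif was present in 6.85% and 0.633%, ACGTG in 21.9% and 19.6%, and GCGTG in 56.2% and 32.4%. TGATGNAAN, a pattern bound by ATF4 and C/EBP factors, was present in 0% and 3.95%. ACGTG and GCGTG can share bases with the NRF1 motif. Member windows were also richer in G and C (median 58.7%, beside 52.7%) and in CpG (median 20, beside 7), so the shares are of windows that differ in base composition. A match or its absence says only whether these letters occur in the window.

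Cox6b2 was higher in every CM-CKO head than in any other head. Its log2 signal was 5.76, 6.38 and 6.06 in Control, 6.02, 6.01, 5.99 and 6.09 in Het, 6.14, 5.92, 5.85 and 5.71 in CM-Het, and 7.28, 7.85, 6.99 and 8.22 in CM-CKO. The 11 heads without the knockout lay close together, and the 4 CM-CKO heads spread over more than a full log2 unit above them. The difference from Control was 1.52 ± 0.23 (SE, adjusted p = 0.000944), a 2.86-fold higher signal. From Het it was 1.55 ± 0.21 (adjusted p = 0.00035) and from CM-Het 1.68 ± 0.21 (adjusted p = 0.000202). The interaction was 1.71 ± 0.31 (adjusted p = 0.0145), so that the difference between CM-CKO and Het exceeded the difference that Cre made in embryos with an intact allele. Cox6b1 gave 12.58, 12.70, 12.59 and 13.01 in the CM-CKO heads and 12.62 to 12.91 in all others, so its groups overlapped. A second Cox6b2 probe was detected on 0 arrays and gives no value.

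The 4 CM-CKO heads had the same order for Cox6b2 as for the mean of red cell genes, an order that other members also showed. The erythroid list held 18 measured genes, namely globins and genes of red cell membrane, haem synthesis and erythroid transcription. Its mean log2 signal was 9.72, 10.74, 9.12 and 11.23 in CM-CKO 1 to 4, the same order of heads as for Cox6b2. Members that did not pass could share that order. Ndufa9 gave 11.78, 11.99, 11.76 and 12.04 in these heads, and Ndufv1 gave 11.69, 11.79, 11.66 and 11.95. How many of all genes share the order was not counted. The list's mean was 7.86 to 8.55 in the other 11 heads. Of its 18 genes 13 were higher than in Control, 14 than in Het and 15 than in CM-Het, among them Alas2, the erythroid enzyme that starts haem synthesis (2.94 ± 0.50 above Control), and Slc4a1, the red cell anion exchanger (2.75 ± 0.38). The globins Hba-a1, Hba-x, Hbb-y and Hbb-bh1 did not pass against Control and had means of 13.5 or more in Control, where the highest signal on the arrays was 14.05. Against CM-Het 15 of the 18 genes passed, so not all of these globins failed there. The log2 of the list's summed signal was 15.89 to 16.56 in CM-CKO, 15.57 to 15.83 in Control, 15.47 to 15.77 in Het and 15.28 to 15.76 in CM-Het. That sum includes the bright globins.

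With the erythroid mean of each head as a covariate, the Cox6b2 difference was 0.58 ± 0.23 from Control (adjusted p = 0.203), 0.54 ± 0.24 from Het (adjusted p = 0.327) and 0.65 ± 0.24 from CM-Het (adjusted p = 0.193). In that fit 0 of 79 respiratory chain genes passed in any CM-CKO comparison, beside 1.44%, 0.447% and 1.08% of all genes. Not all differences shrank with the covariate, while the standard errors of the called members widened in the CM-CKO comparisons. For Cox6b2 against Control the widening was slight, from 0.2261 to 0.2312. That of Atp5a1 from Control was 0.68 ± 0.23 in place of 0.69 ± 0.14, that of Ndufb2 from Control 0.64 ± 0.21 in place of 0.54 ± 0.13, and that of Atp5e from CM-Het 0.60 ± 0.22 in place of 0.43 ± 0.12. Those of Ndufa2 and Ndufv3 from Control came to −0.16 ± 0.14 and 0.20 ± 0.16, nearer to 0 than without it. The erythroid means of CM-CKO and other heads do not overlap, so red cell content and the knockout cannot be told apart in this fit. At an otherwise equal setting without background correction the Cox6b2 differences were smaller, 0.87, 0.89 and 0.94, and passed. The call held on leaving out each of the 15 arrays. Within slides, CM-CKO 4 lay 2.00 above the Control heads of slide 3 and 2.44 above its CM-Het heads, and CM-CKO 1 to 3 lay 1.35 above the Het head of slide 1.

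**Figure D2:**
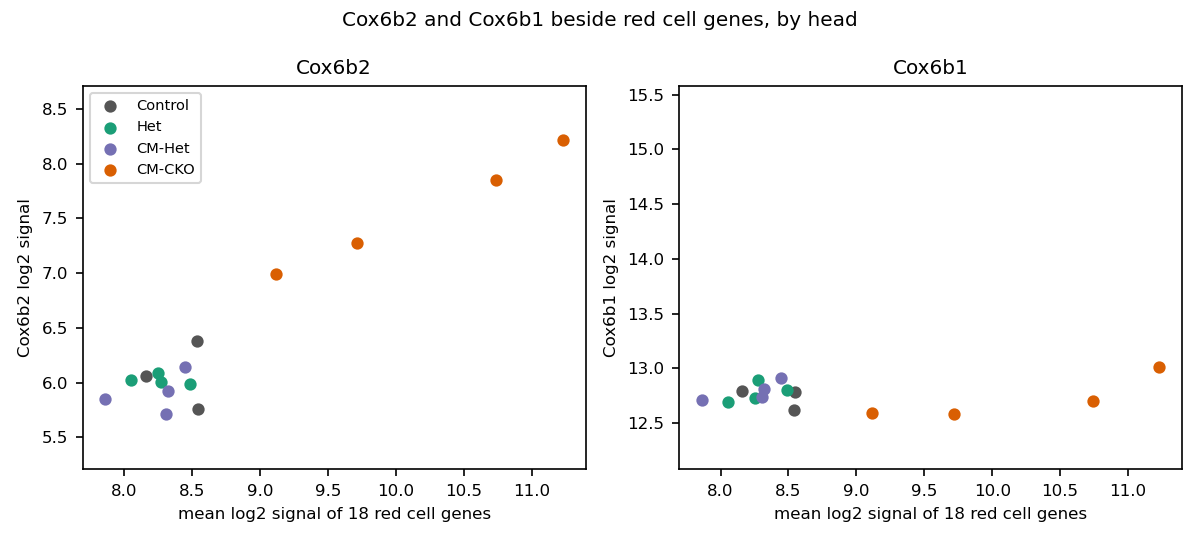
Log2 signal of Cox6b2 (left) and Cox6b1 (right) against the mean log2 signal of the 18 red cell genes, with 1 point per head coloured by group; both vertical axes span the same number of log2 units. The CM-CKO heads lie at 6.99 to 8.22 for Cox6b2, in the order of their red cell means, and at 12.58 to 13.01 for Cox6b1.

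In complex I, 2 genes rose and 2 fell against Control, out of 34, and the complex's median change was 0.02. Ndufs8, an iron-sulphur core subunit of the arm that faces the matrix (chromosome 19, 3908863 to 3912774), fell. Its log2 signal was 10.85, 10.94 and 11 in Control, 10.70, 10.88, 10.86 and 10.81 in Het, 10.89, 10.87, 10.87 and 10.81 in CM-Het, and 10.23, 10.43, 10.74 and 10.50 in CM-CKO. The highest CM-CKO head overlapped the lowest Het head, and the other CM-CKO heads lay below all others. The differences were −0.46 ± 0.11 from Control (adjusted p = 0.0176), −0.34 ± 0.10 from Het (adjusted p = 0.0442) and −0.38 ± 0.10 from CM-Het (adjusted p = 0.0226).

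Ndufa2, an accessory subunit of the NADH-binding end, also fell and did not overlap. Its log2 signal was 12.09, 12.06 and 12.05 in Control, 12, 12.10, 12.01 and 11.99 in Het, 12, 12.16, 12.03 and 12.13 in CM-Het, and 11.83, 11.58, 11.86 and 11.69 in CM-CKO. All 4 CM-CKO heads were the lowest of the 15, as for 3.09% of all genes. The differences were −0.33 ± 0.09 from Control (adjusted p = 0.0401), −0.28 ± 0.08 from Het (adjusted p = 0.0454) and −0.34 ± 0.08 from CM-Het (adjusted p = 0.0193).

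The falls of Ndufs8 and Ndufa2 lay near the threshold. In the fit with slide as a block the differences from Control were −0.39 ± 0.14 for Ndufs8 and −0.34 ± 0.11 for Ndufa2. Neither gene passed there in any of the 3 comparisons. Nor did either pass when only the arrays of the 2 groups compared were fitted (adjusted p = 0.104, 0.181 and 0.0655 for Ndufs8 and 0.141, 0.185 and 0.061 for Ndufa2, limma). Median scaling ended both calls against Control (adjusted p = 0.113 and 0.26) and Het (0.0745 and 0.148) and kept those against CM-Het. Leaving out Control 2, Control 3 or CM-CKO 2 ended the Ndufs8 call against Control; against Het every omission but those of Het 1 and CM-CKO 3 ended it; against CM-Het the omissions of CM-Het 1, 2 or 3 or CM-CKO 1 or 2 did. For Ndufa2 the omissions that ended the call were, against Control, those of any Control or CM-Het head, Het 3 and CM-CKO 2 or 4, against Het all but CM-CKO 1 and 3, and against CM-Het those of CM-Het 2, CM-Het 4 and CM-CKO 2. On slide 3, CM-CKO 4 differed from the Control heads by −0.47 for Ndufs8 and by −0.36 for Ndufa2.

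Ndufv3, an accessory subunit of the NADH-binding flavoprotein module (chromosome 17, 31520115 to 31531326), rose. Its log2 signal was 11.59, 11.58 and 11.58 in Control, 11.56, 11.79, 11.58 and 11.51 in Het, 11.77, 11.63, 11.57 and 11.43 in CM-Het, and 11.95, 11.93, 11.83 and 12.08 in CM-CKO. The 4 CM-CKO heads were the highest of the 15, as for 3.17% of all genes, with the nearest Het and CM-Het heads less than 0.1 below them. The differences were 0.37 ± 0.10 from Control (adjusted p = 0.0403), 0.34 ± 0.09 from Het (adjusted p = 0.036) and 0.35 ± 0.09 from CM-Het (adjusted p = 0.0304). With slide as a block they were 0.47, 0.44 and 0.47 and passed. The call was lost in all 3 comparisons with median scaling (0.39, 0.29 and 0.23; adjusted p = 0.195, 0.273 and 0.32), with the mean of the kept probes (0.26, 0.30 and 0.28; adjusted p = 0.141, 0.062 and 0.0741), and with only the arrays of the 2 groups (adjusted p = 0.0917, 0.136 and 0.0682). Of its 3 kept probes a bright one gave a like difference from Control (0.36) and a dim one 0.04. The call against Control was lost on leaving out any Control head, Het 3, CM-Het 2, CM-Het 3 or CM-CKO 1, 2 or 4. Against Het it was lost without Het 1, 3 or 4, CM-Het 2 or 3 or CM-CKO 1, 2 or 4, and against CM-Het without CM-Het 2, 3 or 4 or CM-CKO 1, 2 or 4.

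Ndufb2, an accessory subunit of the membrane arm (chromosome 6, 39592565 to 39599843), rose against Control and CM-Het. Its log2 signal was 6.79, 6.90 and 6.75 in Control, 7.18, 7.27, 6.77 and 6.83 in Het, 6.58, 6.64, 6.90 and 6.63 in CM-Het, and 7.41, 7.48, 7.28 and 7.23 in CM-CKO. Het 2 lay above the lowest CM-CKO head and all other heads lay below it. The differences were 0.54 ± 0.13 from Control (adjusted p = 0.0215) and 0.66 ± 0.12 from CM-Het (adjusted p = 0.00318), and 0.34 ± 0.12 from Het, which did not pass (adjusted p = 0.0964). Leaving out Control 1, Control 3 or CM-CKO 2 ended the call against Control, as did median scaling (adjusted p = 0.0948), and slide as a block ended both. Ndufa6, another accessory subunit, had the largest difference of complex I from Het, 0.42 ± 0.14 (adjusted p = 0.0782).

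Complexes II and III had 0 of 3 and 0 of 6 genes changed in every comparison. In complex II, which links the citric acid cycle to the chain, Sdhb, the iron-sulphur subunit, differed from Control by −0.19 ± 0.11 (adjusted p = 0.315), and Sdhd, a membrane anchor, by 0.23 ± 0.18 (adjusted p = 0.492). Sdhc, the other anchor, differed from CM-Het by 0.21 ± 0.11 (adjusted p = 0.262). Complex III, cytochrome bc1, had the narrowest range of any complex. Its 6 genes lay between −0.01 (Uqcr10) and 0.03 (Uqcrh) against Control, between −0.06 (Uqcrc1) and 0.04 (Uqcrc2) against Het, and between −0.07 (Uqcrq) and 0.06 (Uqcr11) against CM-Het, with standard errors of 0.08 to 0.14 for these genes.

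In complex IV, Cox6b2 was the 1 gene of 13 that passed in the CM-CKO comparisons; the median was 0.12 against Control. Ndufa4, a subunit first assigned to complex I and now to complex IV, was the largest fall. It measured 12.87, 12.74, 12.88 and 12.74 in CM-CKO and 12.90 to 13.16 in the other 11 heads. The groups did not overlap, yet the differences of −0.23 ± 0.09 from Control (adjusted p = 0.124), −0.17 ± 0.08 from Het (adjusted p = 0.214) and −0.18 ± 0.08 from CM-Het (adjusted p = 0.18) did not pass. Against Control, Ndufa4 did pass without background correction (adjusted p = 0.0418, limma) and with the authors' deposited values (adjusted p = 0.0421). It did not pass there with median scaling or slide as a block.

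The other isoform pairs of complex IV showed no passing difference. Cox4i1, the general form of subunit 4, had group means of 12.91, 12.80, 12.87 and 12.92 in Control, Het, CM-Het and CM-CKO. Cox4i2, its form raised by low oxygen in cultured cells, had 5.08, 5.19, 5.40 and 5.53, and its difference from Control was 0.45 ± 0.24 (adjusted p = 0.284). Cox7a1, the muscle form of subunit 7a, had 6.28, 6.38, 6.33 and 6.53, and Cox7a2, the form of most other tissues, had 8.56, 8.54, 8.42 and 8.68. Cox7a2l, which takes part in joining complexes III and IV, had 10.91, 10.79, 10.92 and 11.03. The nuclear subunits Cox5a and Cox5b, which are distinct proteins, had CM-CKO means of 12.82 and 13.07 against Control means of 12.79 and 13.15, and Cox6a1 had 12.67 against 12.52. Signals of different probes do not rank the genes, since each probe binds with its own strength.

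In complex V, Atp5a1, the alpha subunit of the catalytic head, rose against Control and CM-Het. Its brighter probe gave 8.90, 9.33 and 9.29 in Control, 9.69, 9.37, 9.32 and 9.40 in Het, 9.14, 9.03, 8.92 and 9.41 in CM-Het, and 9.83, 10.01, 9.82 and 9.78 in CM-CKO. The 4 CM-CKO heads were the highest of the 15. The differences were 0.69 ± 0.14 from Control (adjusted p = 0.00719) and 0.74 ± 0.13 from CM-Het (adjusted p = 0.00203), and 0.41 ± 0.13 from Het, which just missed the threshold (adjusted p = 0.0543). With the authors' deposited values the difference from Het passed (0.37, adjusted p = 0.0348, limma), and with median scaling or slide as a block it did not. A dimmer probe of the same gene, detected on all 15 arrays, differed from Control by −0.04, and the mean of both probes differed from Control by 0.32, which did not pass (adjusted p = 0.0713), and from CM-Het by 0.35, which did (adjusted p = 0.0333). No omission of 1 array ended either call; slide as a block ended the call against Control and kept that against CM-Het (0.53 ± 0.15, adjusted p = 0.0375).

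Atp5e, the epsilon subunit of the central stalk, and Atp5h, subunit d of the peripheral stalk, passed against CM-Het, by 0.43 ± 0.12 (adjusted p = 0.0295) and 0.34 ± 0.10 (adjusted p = 0.044). Atp5e ranged over 6.80 to 7.17 in CM-CKO, 6.31 to 6.81 in CM-Het, 6.58 to 6.91 in Het and 6.62 to 6.79 in Control. Atp5h ranged over 11.18 to 11.36 in CM-CKO, 10.84 to 11.04 in CM-Het, 10.83 to 11.20 in Het and 10.91 to 11.18 in Control. Both overlapped Het, and neither passed against Het or Control. The Atp5e call was lost without CM-Het 1, 2 or 4 or CM-CKO 1 or 2, the Atp5h call without Control 3, any CM-Het head or CM-CKO 2, 3 or 4, and both with slide as a block. Median scaling also ended both, with 0.33 for Atp5e (adjusted p = 0.186) and 0.20 for Atp5h (adjusted p = 0.394), and the fit to the arrays of the 2 groups ended that of Atp5e (adjusted p = 0.067). Atp5k, subunit e of the membrane part, had the lowest difference from CM-Het, −0.31 ± 0.18 (adjusted p = 0.286). Atp5g2 and Atp5g3, which encode the same mature c subunit of the rotor, had CM-CKO means of 11.52 and 13.88 and Control means of 11.52 and 13.85. The brighter Atp5j probe (coupling factor 6) differed from Control by 0.04, and the dimmer one by −0.50 (adjusted p = 0.00767 over probes). The rows of both Atp5j probes differ between the deposited tables, so which of the probes each value belongs to is not settled.

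Among the assembly factors, Ndufaf1, which helps to assemble the membrane arm of complex I (chromosome 2, 119655446 to 119662839), passed against CM-Het. It ranged over 9.48 to 9.93 in CM-CKO, 9.08 to 9.22 in CM-Het, 9.14 to 9.47 in Het and 9.20 to 9.41 in Control. The lowest CM-CKO head lay just above the highest Het head. The difference from CM-Het was 0.45 ± 0.11 (adjusted p = 0.0161), and those from Control (0.34 ± 0.12, adjusted p = 0.0925) and Het (0.31 ± 0.11, adjusted p = 0.0924) did not pass; leaving out CM-Het 4 or CM-CKO 2, slide as a block, or median scaling (0.31, adjusted p = 0.237) ended the call. Ndufaf8 had the lowest difference from Control, −0.44 ± 0.14 (adjusted p = 0.0691), and Ndufaf5 the lowest from Het, −0.13 ± 0.11 (adjusted p = 0.498). With replicate number as a block the Ndufaf8 difference from Control was −0.52 ± 0.11 and passed (adjusted p = 0.01775, limma). It did not pass there with median scaling or slide as a block. Ndufaf8 was 8.96 in CM-CKO 4 and 8.36 to 8.42 in the other CM-CKO heads.

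**Figure D3:**
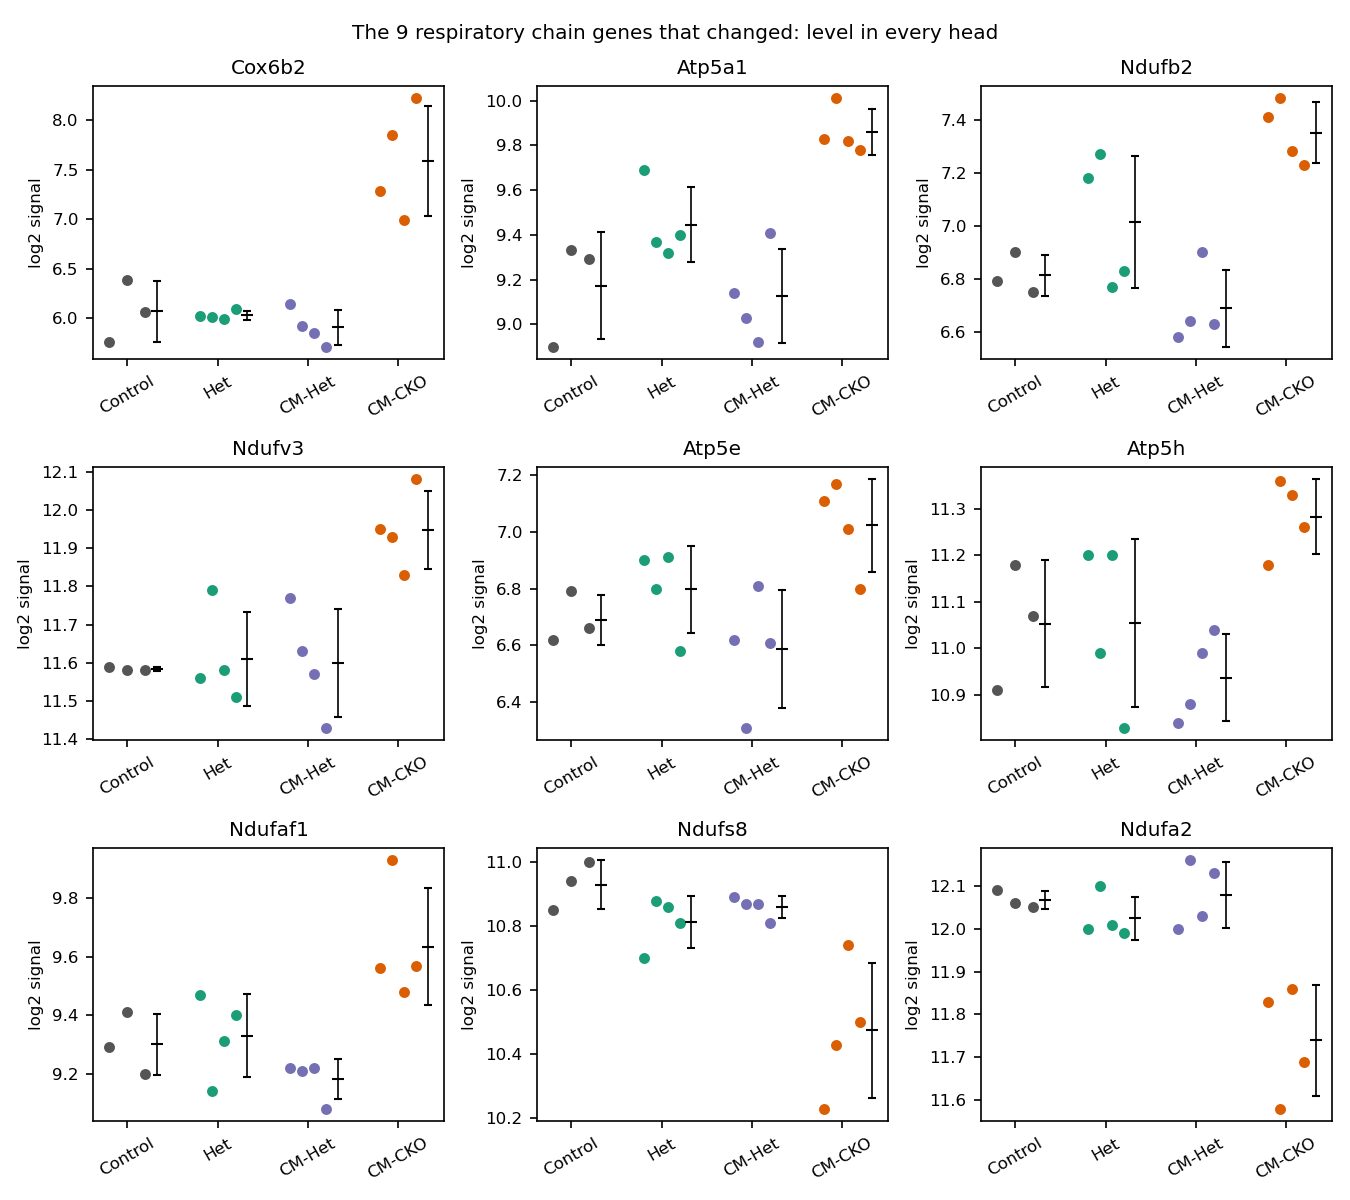
Log2 signal (vertical axis, its own range in each panel) in every head for the 9 respiratory chain genes that changed in at least 1 CM-CKO comparison, by group; black marks are the group mean and SD. The CM-CKO heads are the highest for Cox6b2, Atp5a1, Ndufv3 and Ndufaf1 and the lowest for Ndufa2, and overlap other heads for the rest.

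In all, 9 members changed in at least 1 CM-CKO comparison, 11.4% beside 13.6% of all genes, and 4 (Cox6b2, Ndufa2, Ndufs8 and Ndufv3) changed in all 3, 5.06% beside 4.34%. Both shares were near the background. Counted without a test, 4 members had all CM-CKO heads above the 11 others (Cox6b2, Atp5a1, Ndufv3 and Ndufaf1), which is 5.06% beside 3.17% of all genes, and 2 (Ndufa2 and Ndufa4) had all below, 2.53% beside 3.09%. In either direction these were 7.59% of members beside 6.25% of all genes. With slide as a block the calls against Control were Cox6b2 and Ndufv3, 2.53% of members beside 8.09% of all genes in that fit. Against Het they were Cox6b2, Ndufv3 and 4 genes that had not passed before: Cox7b (0.53 ± 0.12), Ndufa6 (0.60 ± 0.13), Ndufs7 (0.37 ± 0.11) and Ndufa3 (0.33 ± 0.09), together 7.59% beside 10.1%. Against CM-Het they were Cox6b2, Ndufv3, Atp5a1, Cox7b, Ndufa6 and Ndufs7, 7.59% beside 9.21%. The members' share lay below that of all genes in each comparison of that fit. All member calls of that fit were higher in CM-CKO.

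The brightest members changed least, and brightness depends on the probe as well as on the transcript. Of the 79 genes 27 (34.2%) had a mean log2 signal of 12 or more, beside 3.64% of all genes, and 0 of these 27 changed against Control, beside 2.36% of all genes as bright. Their median size of change was 0.02, beside 0.08 for all genes as bright. Members between 10 and 12 had a median size of 0.14, beside 0.13 for all genes of that range, and 3 of 28 changed, beside 5.32%. Those between 8 and 10 had 0.31, beside 0.17, and 1 of 10 changed, beside 7.94%. Those under 8 had 0.24, beside 0.18, and 2 of 14 changed, beside 7.69%. Below a signal of 12, then, the members' median sizes were not smaller than those of all genes. The median SE of the members was 0.10 in the brightest class and 0.17 in the dimmest. The highest signal on the arrays was 14.05, and the brightest member, Atp5g3, averaged 13.90; how far bright signals are compressed was not tested.

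**Figure D4:**
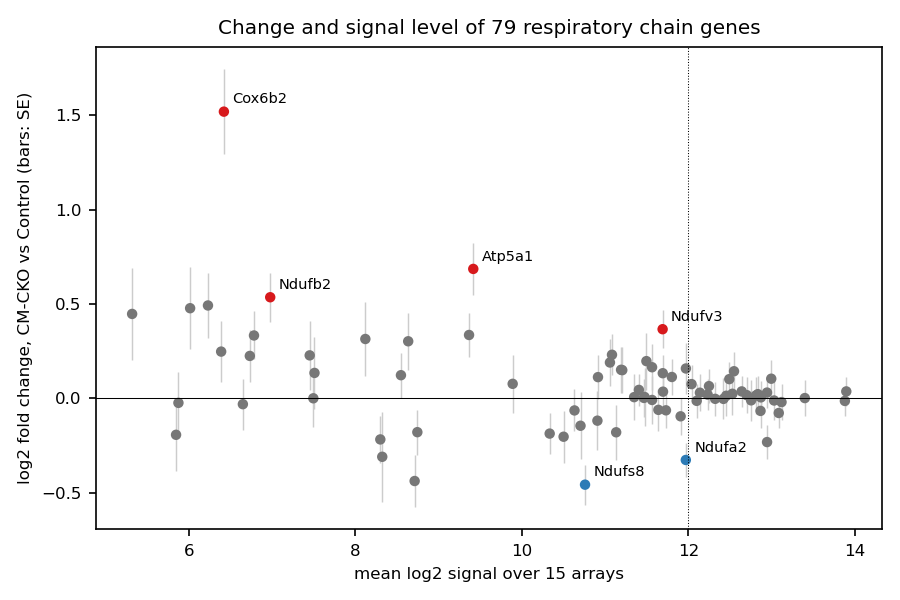
Log2 fold change of CM-CKO against Control (vertical axis, bars are SE) by mean log2 signal over the 15 arrays (horizontal axis) for the 79 respiratory chain genes; red rose, blue fell, grey did not pass, and the dotted line marks a log2 signal of 12. The genes right of the line lie close to 0, and 0 of the 27 passed.

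Probes of the same gene did not always move together. Of 26 genes with more than 1 kept probe, 9 had all probes on the same side of 0 against Control, and 3 (Atp5a1, Atp5j and Ndufv3) had a changed probe. Over the 114 kept probes 5 changed against Control (4.39%, beside 5.68% of all kept probes), 2 against Het (1.75%, beside 5.98%) and 10 against CM-Het (8.77%, beside 7.38%). The clearest split was in Ndufb10, a membrane arm subunit of complex I, described after its values were seen. Its dimmer probe read 7.19 to 8.0 in 9 heads and 4.43 to 5.15 in the other 6, with no head between. The 9 heads were 1 Control, 2 Het, 3 CM-Het and 3 CM-CKO, so the split does not follow the genotype groups. The brighter probe read 7.88 to 8.48 in the 9 heads and 8.48 to 8.96 in the 6, so that heads low on the dimmer probe were high on the brighter.

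**Figure D5:**
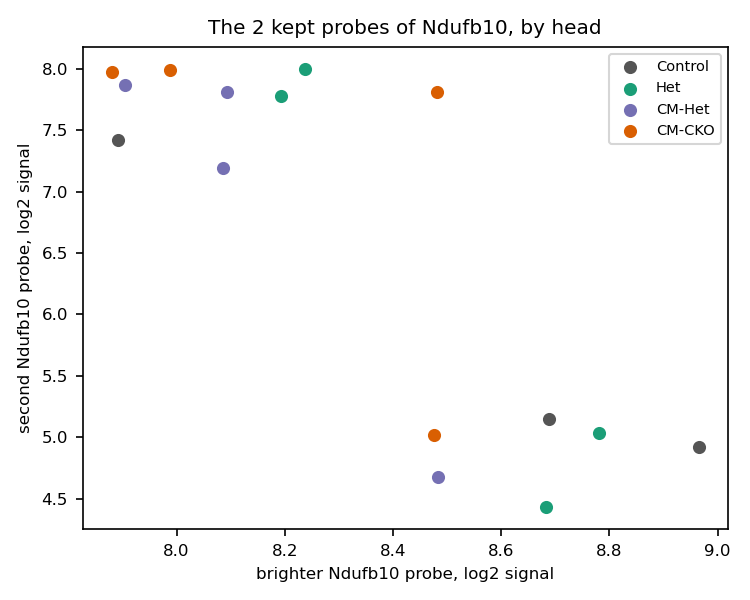
Log2 signal of the dimmer Ndufb10 probe (vertical axis) against that of the brighter one (horizontal axis), 1 point per head, coloured by group. The heads form 2 separate sets on the vertical axis, at 7.19 to 8.0 and at 4.43 to 5.15, and each set holds heads of all 4 groups.

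Genes around the chain were read from 8 lists. Those that assemble it outside the member rule had 1 of 34 changed against Control, Coa4, a complex IV assembly factor (−0.61 ± 0.12, adjusted p = 0.00797), which was also lower than in Het (−0.54 ± 0.12, adjusted p = 0.00948). Cox17, the copper chaperone of complex IV, was higher than in Het and CM-Het (0.55 ± 0.14 and 0.54 ± 0.14). The list had 1 higher and 2 lower against Het and 3 higher against CM-Het, with medians of −0.04, 0.03 and 0.06. Electron carriers and entry enzymes had 0 of 20 changed against Control and 1 lower against each of Het and CM-Het, Coq4, a coenzyme Q synthesis protein (−0.40 ± 0.10 and −0.37 ± 0.10). The citric acid cycle had 0 of 15 in all 3 comparisons (median against Control 0.06), and the uncoupling and adenine nucleotide carriers 0 of 7 (median −0.01). Beside these lists, 7.23%, 8.47% and 9.91% of all genes changed against Control, Het and CM-Het.

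Of 73 mitochondrial ribosome genes, 1 rose and 3 fell against Control (5.48%; median −0.06), 1 rose and 3 fell against Het, and 3 rose and 4 fell against CM-Het. Mrpl51 fell against all 3 (−0.45, −0.40 and −0.67), as did Mrps25 (−0.38, −0.36 and −0.40). Of 20 regulators of mitochondrial biogenesis, Tfb1m, an enzyme that methylates mitochondrial ribosomal RNA, rose against Control (0.38 ± 0.10, adjusted p = 0.0376) and CM-Het, and the other 19 did not pass against Control; the list's median was −0.07. Of 24 genes of import and the inner membrane, Timm17b, a channel subunit of the import machinery, fell (−0.58 ± 0.16, adjusted p = 0.0429) and Lonp1 rose against Control; Lonp1 alone passed against Het and 0 passed against CM-Het.

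Of 10 oxygen-regulated genes tied to mitochondrial metabolism, 5 rose against Control (50%, beside 7.23% of all genes), 5 against Het and 4 against CM-Het, and 0 fell, with medians of 0.36, 0.28 and 0.37. Pdk1, the kinase that switches off pyruvate dehydrogenase, rose by 1.36 ± 0.15 over Control (adjusted p = 7.56e-05). Egln3, a prolyl hydroxylase that marks HIF proteins for breakdown, rose by 1.32 ± 0.16 (adjusted p = 0.000114). Mxi1, which opposes Myc, rose by 0.78 ± 0.16, Bnip3l, a receptor for the removal of mitochondria, by 0.57 ± 0.09, and Lonp1, a protease of the matrix that also stands in the import list, by 0.47 ± 0.12. Higd1a (0.26 ± 0.14), Fundc1, Iscu, Aifm1 and Chchd4 did not pass. The list was chosen with earlier results of these data known, so its share of changed genes is a description and not a test. Red cell genes rose in the same heads, and their part in these changes was not tested.

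Markers of other cell types are given as counts of changed genes against Control, Het and CM-Het. Of all genes 7.23%, 8.47% and 9.91% changed in these comparisons. The cardiac list had 1, 1 and 1 of 6 (Actc1, 2.26 ± 0.16 above Control), and its defining markers Myh6, Myh7, Myl2, Myl3, Myl7, Nppa, Tnni3, Tnni1, Ryr2 and Pln were not detected on enough arrays to be kept. The log2 of its summed signal was 9.22 to 9.89 in CM-CKO and 8.06 to 8.40 in the other groups. The mean log2 signal of the cardiac list was 6.435 in CM-CKO 3 and 5.717, 5.605 and 5.707 in CM-CKO 1, 2 and 4. In the other groups that mean was 5.28 to 5.60. The skeletal muscle list had 1, 1 and 1 of 5 (Acta1, 2.16 ± 0.19), with Myod1, Myf5, Myf6, Tnnt3 and Ckm not kept. Its summed signal was 7.84 to 8.27 in CM-CKO and 7.09 to 7.41 in the other groups on the same scale, and that of the endothelial list 11.03 to 11.36 and 11.61 to 11.86. Of 10 endothelial genes 2, 5 and 5 fell (20%, 50% and 50%), and of 8 forebrain and midbrain genes 1, 2 and 2 fell (12.5%, 25% and 25%). Beside them 3.28%, 4.33% and 4.62% of all genes fell. Of 7 genes of cranial mesenchyme and neural crest, 1 rose against Control, 2 fell against Het and 0 passed against CM-Het. The neuron list had 0 of 9 and the trunk list 0 of 3 in all 3. The part of these cell types in the respiratory chain results was not tested.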

How the data were processed

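Per the labels' protocols, RNA from embryo heads was extracted on micro columns and labelled with biotin at a service facility. The deposited signals were intensity values per probe and array on a linear scale, not normalized; the sources used here name no software for this step. Detection p-values were deposited beside each signal, per the file headers, but their rows did not match the signals' rows: 74.4% to 75.6% of each array's entries were misplaced by over 0.05. They were therefore re-attached by rank within each of 14 arrays. The detection column of Het 1 (1 column of per-sample values, not used) was replaced by the average by rank of the others. The authors' deposited value table held log2 signals and served as an alternative; 42477 of its 45281 rows equalled quantile-normalized signals within 0.02 and 2804 differed, among them 10 kept member probes of 5 genes (Atp5j, Ndufb11, Ndufc1, Ndufs6 and Uqcr10).

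Signals were background-corrected (limma nec, offset 16), then quantile-normalized, and log2 values were taken; each gene was read by its brightest kept probe, named through the platform's annotation (34885 probes with 1 gene, 18 with several, 10378 with none). The 4 groups were fitted together by genotype (lmFit, contrasts.fit and eBayes; limma 3.58.1, R 4.3.3), with p-values adjusted by Benjamini-Hochberg over 11625 genes and called at 0.05. Errors of differences are SE of the fit. The number of arrays limits the precision, and p-values measure the spread between these samples; the labels do not say whether heads share a litter. Figures were drawn with matplotlib 3.10.9.

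Members and lists were chosen with earlier results of these data known. Genes named in the text are those changed in any comparison, the largest rise and fall of each complex in the CM-CKO comparisons, the isoform pairs, genes whose probes disagree with 1 passing, and up to 5 passing genes of each list. Alternatives were no background correction, median scaling, other probe filters and summaries, slide or replicate number as a block, the red cell mean as a covariate, the authors' values, fits to the arrays of 2 groups, values within slide 3, and leaving out each array.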

Additional observations from a re-analysis of the deposited data

Results flagged for a closer look

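Cox6b2 differed between contrasts: its interaction was 1.71 on the log2 scale, since CM-CKO heads exceeded Het heads while CM-Het heads did not exceed Control heads (adjusted p = 0.0145, limma).

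In 6 of 105 groups of 4 heads checked over 35 named genes, 1 head stood apart from the other 3; chance gives about 1 in 20. Atp5g2 was 11.50 in CM-Het 1, where the others were 11.28 to 11.31. Atp5k was 5.46 in Het 3, with the others at 5.87 to 5.96, and Sdhc was 10.67 in Het 4, with the others at 11.08 to 11.14. Ndufaf1 was 9.08 in CM-Het 4, with the others at 9.21 to 9.22. Among the CM-CKO heads Ndufaf8 was 8.96 in CM-CKO 4, with the others at 8.36 to 8.42, and Sdhb was 10.47 in CM-CKO 3, with the others at 10.25 to 10.28.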

How the results depend on the processing

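No named gene reversed a called direction. The members' medians did change sign in some settings, as given below. Counts of changed respiratory chain genes fell against Control from 6 (beside 7.23% of all genes) to 2 with median scaling (3.73%), 2 with slide as a block (8.09%), 1 with the replicate block and slide (0.267%), 0 with the red cell mean as a covariate (1.44%) and 3 with the arrays of the 2 groups only (2.34%). Against Het they fell from 4 (8.47%) to 1 with median scaling (5.01%), 2 in a fit over probes (5.98% of probes), 2 with the replicate block (8.46%), 0 with the covariate (0.447%) and 1 with the 2 groups only (2.86%). Against CM-Het they fell from 9 (9.91%) to 5 with median scaling (7.61%), 2 with the replicate block and slide (3.43%) and 0 with the covariate (1.08%), and for the interaction from 1 (1.07%) to 0 with the covariate (0.138%). The share of all genes fell as well in these settings, other than with slide as a block, where it rose, and with the replicate block against Het, where it barely moved. Leaving out each array gave 2 to 6, 1 to 5 and 3 to 10 calls in the CM-CKO comparisons, 0 to 0 in Het and CM-Het against Control, and 1 to 1 in the interaction. The members' medians then ran from −0.0011 to 0.0607, 0.0114 to 0.0621, 0.0093 to 0.0738, −0.0569 to 0.0107, −0.0604 to −0.0075 and 0.0178 to 0.103.

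Medians moved by more than the spread between replicates in these cases. With slide as a block they were 0.11 against Control and 0.17 in the interaction; with the replicate block and slide 0.14 against Control, 0.15 against CM-Het and 0.0304 in Het against Control. With the covariate they were −0.0842 against Control, −0.083 against Het, −0.125 against CM-Het and −0.0948 in the interaction. Within slide 3 they were 0.12, 0.14 and 0.20 in the CM-CKO comparisons and −0.0708 and −0.0796 in Het and CM-Het against Control. Median scaling gave −0.0595 against CM-Het, 0.0557 and 0.104 in Het and CM-Het against Control, and −0.12 in the interaction; it put the median of all genes at −0.12, 0.10, 0.13 and −0.21 there. The causes were not tested.

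Correlations above 0.1 were found in 5 of 21 same-numbered pairs (−0.131 to 0.329) and in 5 of 63 others (−0.266 to 0.157). The share was thus higher among same-numbered pairs. Het 1 with CM-CKO 1 (0.329), Control 3 with CM-Het 3 (0.159), Het 4 with CM-Het 4 (0.151) and Het 4 with CM-CKO 4 (0.125) also shared a slide. Control 3 with CM-CKO 3 (0.116) did not. Same-numbered pairs on 1 slide that stayed below 0.1 were Control 1 with CM-Het 1 (0.086), CM-Het 4 with CM-CKO 4 (0.02) and Het 2 with CM-Het 2 (−0.006). Replicate number and slide were not separated here. Whether replicate numbers pair the heads is not settled. The replicate block gave 5, 2, 9, 0, 0 and 1 calls. Precision is limited by 3 or 4 arrays per group and, for dim genes, by signal close to background.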
